A study of Mus musculus with 31 samples.

Results

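The 10 genes described here encode the subunits of the transcription factor NF-kB and the inhibitors that NF-kB itself induces: Rela, Rel, Relb, Nfkb1, Nfkb2, Nfkbia, Nfkbie, Tnfaip3, Nfkbiz and Bcl3. They were taken by gene symbol from 54532 genes in a table of cultured microglia and by the same Ensembl identifier from 48795 genes in a table of hippocampi, and each of the 10 genes passed the filter on low counts in both tables. Primary microglia came from the cortices of Cgas+/+ or Cgas-/- mouse pups at postnatal days 1 to 3, and each genotype was given vehicle, 0N4R tau fibrils at 2 ug per ml or herring testis DNA (HT-DNA, an activator of the DNA sensor cGAS) at 1 ug per ml for 6 h, with 3 libraries in each of the 6 groups. The mixed glial cultures they were shaken from had received granulocyte-macrophage colony-stimulating factor, and the composition of the vehicle was not given in the sources used here. Hippocampi came from 8- to 9-month-old mice, 6 carrying the P301S human tau transgene (3 female, 3 male) and 7 non-transgenic (Ntg; 3 female, 4 male), and the labels of these mice do not state a Cgas genotype. The tissue was taken whole, so its libraries mix neurons, glia and vessels, and the promoter of the transgene was not given in the sources used here.

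NF-kB dimers are built from RELA, REL and RELB, which carry transactivation domains, and from p50 and p52, which are cut from the products of Nfkb1 and Nfkb2. In resting cells IkB proteins, among them IkBa (Nfkbia) and IkBe (Nfkbie), hold the dimers in the cytoplasm until an IkB kinase marks them for degradation. Freed NF-kB then switches on the genes of its own inhibitors, which include those IkB genes and the ubiquitin-editing enzyme A20 (Tnfaip3), and the nuclear regulators IkBz (Nfkbiz) and BCL3 adjust what p50 and p52 do at promoters. In microglia this pathway is a main route to cytokine and chemokine production, and STING, which acts below cGAS, can feed into it beside its better known route to interferon.

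Because several of these genes are known targets of the factor they encode or restrain, their promoters were searched on both strands for the 10-base kB consensus, the site NF-kB dimers bind. RefSeq windows of 250 bases before to 50 bases after a gene start (GRCm38.p6) were given for 7 of the 10 genes, and 6 of the 7 had at least 1 match: Nfkb2, Rel, Nfkbia, Nfkbie, Tnfaip3 and Bcl3. Of the 27025 genes with a window in the same collection, 9.55% had a match. Counted by window, 8 of the 10 windows of these genes held one, against 8.46% of all 32851 windows. Shown here, 5′ to 3′ on the strand of each gene, are the 2 IkB genes and Nfkb2, Tnfaip3, which is A20, and Rela, the 1 of the 7 with no match; capitals mark the matches, and adjoining capitals in Nfkb2 are overlapping matches.
Nfkbia, chr12:55492598-55492897, minus strand: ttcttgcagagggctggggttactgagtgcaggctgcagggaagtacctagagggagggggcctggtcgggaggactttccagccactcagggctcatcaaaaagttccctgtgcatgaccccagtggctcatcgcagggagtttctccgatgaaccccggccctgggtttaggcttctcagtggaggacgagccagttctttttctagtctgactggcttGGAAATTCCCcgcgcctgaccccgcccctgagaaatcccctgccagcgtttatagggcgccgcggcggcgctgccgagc
Nfkbie, chr17:45555450-45555749, plus strand: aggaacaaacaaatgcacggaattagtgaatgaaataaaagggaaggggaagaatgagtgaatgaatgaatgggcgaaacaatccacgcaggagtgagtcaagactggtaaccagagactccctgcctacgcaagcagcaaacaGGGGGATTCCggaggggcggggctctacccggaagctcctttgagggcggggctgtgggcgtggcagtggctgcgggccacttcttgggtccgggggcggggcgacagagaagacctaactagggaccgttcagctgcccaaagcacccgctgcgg
Nfkb2, chr19:46304487-46304786, plus strand: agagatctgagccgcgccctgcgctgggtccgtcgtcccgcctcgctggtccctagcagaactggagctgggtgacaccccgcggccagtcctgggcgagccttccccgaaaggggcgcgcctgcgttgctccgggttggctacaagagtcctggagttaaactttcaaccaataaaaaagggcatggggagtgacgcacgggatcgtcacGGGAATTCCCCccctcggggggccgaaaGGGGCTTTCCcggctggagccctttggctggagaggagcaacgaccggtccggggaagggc
Tnfaip3, chr10:19015361-19015660, minus strand: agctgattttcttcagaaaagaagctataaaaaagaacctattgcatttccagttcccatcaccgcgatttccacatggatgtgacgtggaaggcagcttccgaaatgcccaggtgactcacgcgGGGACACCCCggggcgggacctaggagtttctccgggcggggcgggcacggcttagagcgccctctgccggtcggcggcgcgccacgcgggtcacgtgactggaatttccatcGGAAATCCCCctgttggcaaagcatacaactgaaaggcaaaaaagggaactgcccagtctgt
Rela, chr19:5637291-5637590, plus strand: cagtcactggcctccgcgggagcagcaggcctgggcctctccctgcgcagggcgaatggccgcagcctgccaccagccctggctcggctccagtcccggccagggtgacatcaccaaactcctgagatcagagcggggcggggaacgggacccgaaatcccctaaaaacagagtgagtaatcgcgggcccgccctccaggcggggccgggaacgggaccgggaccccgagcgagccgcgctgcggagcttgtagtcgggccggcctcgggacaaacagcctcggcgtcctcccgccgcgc
The remaining matches lay in the Rel window (GGGAAATCCC and, shifted by 1 base, GGAAATCCCC), the Bcl3 window (GGGAAGTCCC) and a downstream pair of overlapping Nfkb2 windows (GGAATGTCCC, and GGGACTTTCC, which lies in both), while a further Tnfaip3 window held none. A match is a description of these letters and no binding was measured.

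The libraries of cultured microglia held 17037500 to 25174800 counts and the hippocampal libraries 25953300 to 35780000. Scaling factors were 0.890 to 0.900 in Cgas+/+ HT-DNA libraries and 1.03 to 1.05 in Cgas+/+ vehicle libraries. Levels are given in CPM, the share of a library's counts brought to a common library size and scaled by the trimmed mean of M-values, and a gene was called when its Benjamini-Hochberg adjusted p over all tested genes in edgeR's quasi-likelihood test was below 0.05. Cgas itself was at 23.2 ± 4.21 CPM (SD, n = 3) in Cgas+/+ vehicle libraries and 4.93 ± 0.748 in Cgas-/- vehicle libraries, so it was lower but not at 0 in the knockout; where the deletion lies relative to the counted reads was not given. Mapt, whose reads can come from mouse and human tau, was 858 to 1125 CPM in the P301S hippocampi and 519 to 642 in the Ntg hippocampi, with no overlap. Of the markers of microglia, Csf1r and Cx3cr1 had at least 10177 and 2037 counts in every cultured library, and Siglech, also a microglial marker, had 0 to 5 counts. The neuronal marker Snap25 had at most 15 counts and the endothelial markers Cldn5 and Pecam1 at most 4 and 11. Flt1 and Kdr, from the same endothelial list, were well above that, and the summed level of that list was 105 to 125 CPM in Cgas+/+ vehicle, 141 to 176 in Cgas+/+ tau, 378 to 388 in Cgas+/+ HT-DNA and 27.5 to 37.2 over the Cgas-/- groups; its part in the results was not tested.

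Tau fibrils raised each of the 10 genes in Cgas+/+ microglia. The called share of all 13675 tested genes was 15.8% higher and 12.2% lower, the median log2 fold change of the 10 genes was 0.77, and that of all tested genes was -0.01. The largest estimates were those of the IkB genes Nfkbie (log2 fold change 1.27, SE 0.08) and Nfkbia (1.25, SE 0.07), which lie within their errors of each other, and the smallest was that of Rela (0.15, SE 0.04). In each of the 10 genes the 3 tau libraries lay above the 3 vehicle libraries. How common this separation is among all tested genes was not counted. An exact permutation test of 3 libraries against 3 cannot go below p = 0.1, so the calls rest on the fit across all genes.

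HT-DNA in Cgas+/+ microglia raised 7 of the 10 genes and lowered none, against a background of 22.8% of tested genes called higher and 24.7% called lower. Nfkb2, Rela and Relb did not pass the test, with log2 fold changes of 0.10, 0.00 and 0.11 (SE 0.06, 0.04 and 0.07). The largest rises were those of Nfkbia (1.297, SE 0.07), Tnfaip3 (1.20, SE 0.06) and Nfkbie (1.03, SE 0.08). The tau and HT-DNA comparisons share the 3 vehicle libraries. A direct comparison of tau and HT-DNA libraries, which do not share samples, called 5 genes higher with tau (Nfkb1, Nfkb2, Rela, Relb and Nfkbie) and 2 lower (Rel and Tnfaip3), with 17.1% of tested genes called higher and 17.8% called lower. Of the 7, the calls of Rel, Nfkbie and Rela were lost when single libraries were left out, with adjusted p up to 0.14 without Cgas+/+ HT-DNA library 3, 0.077 without Cgas+/+ tau library 1 and 0.083 without that same tau library; Rel also lost it without HT-DNA library 1 or 2 or tau library 2, and Nfkbie without HT-DNA library 1. The agents were used at different mass concentrations.

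**Figure D1:**
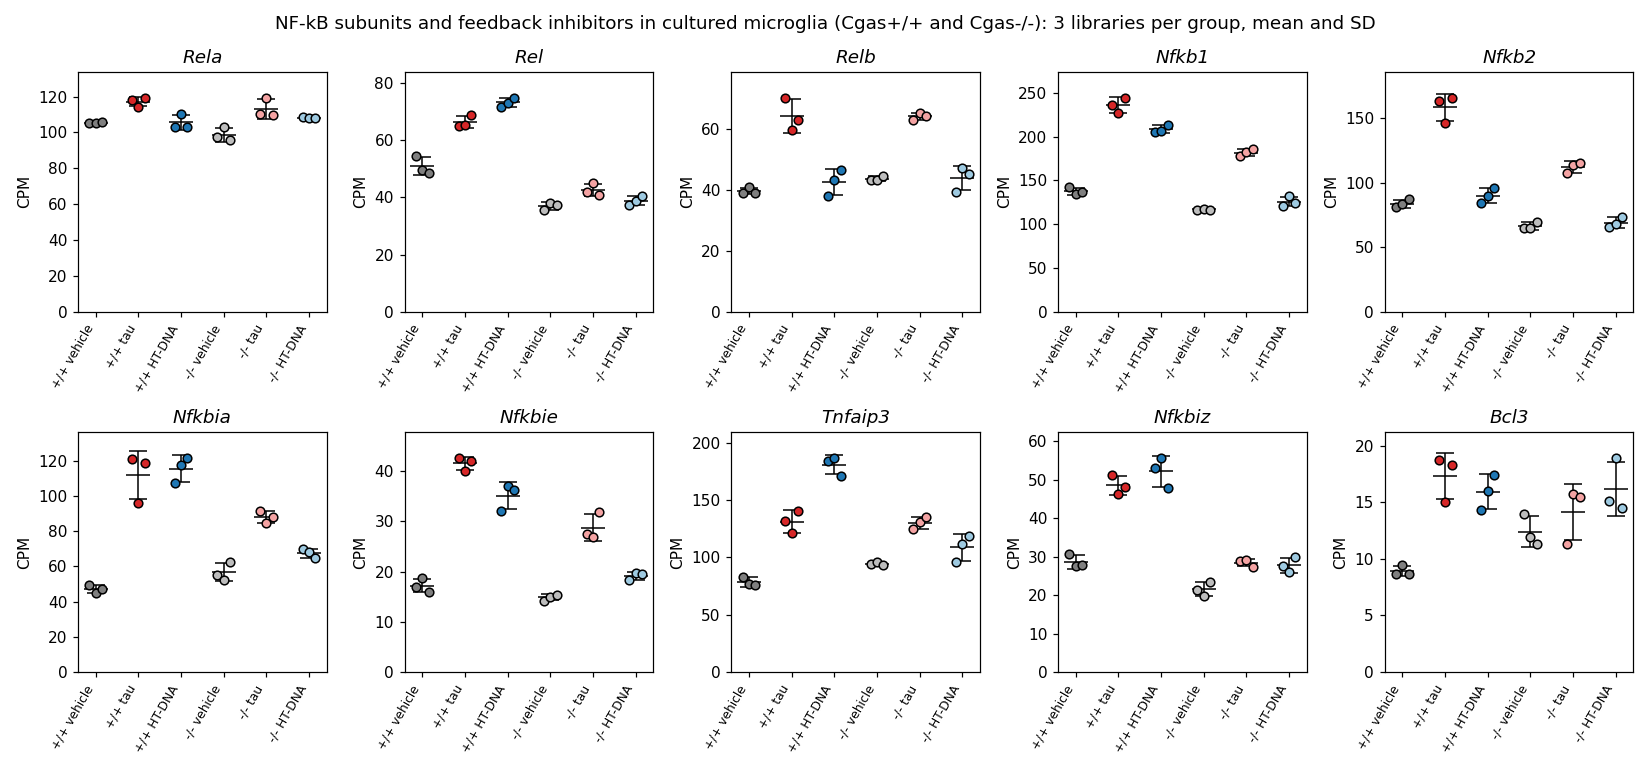
CPM (y axis, from 0) of the 10 genes in the 6 groups of cultured microglia, with 1 point for each of 3 libraries and a bar for the mean and SD. In Cgas+/+ microglia Nfkb2 and Relb stood high with tau and close to vehicle with HT-DNA, and Tnfaip3 was higher with HT-DNA (171 to 187 CPM) than with tau (121 to 140.4 CPM).

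Among the transactivating subunits, Rela (p65, the most studied NF-kB subunit) varied least. In Cgas+/+ libraries Rela was at 105, 105 and 106 CPM with vehicle, 118, 114 and 119 CPM with tau and 103, 110.5 and 103 CPM with HT-DNA. Without Cgas the libraries were at 97.2, 103 and 95.7 CPM with vehicle, 110.1, 119 and 109.7 CPM with tau and 109, 108 and 108 CPM with HT-DNA. The highest group mean was 1.19 times the lowest, against 1.62 to 2.79 times for the other 9 genes. Tau raised Rela by 0.15 in Cgas+/+ and 0.20 in Cgas-/- microglia on the log2 scale, and the difference between genotypes did not pass the test (0.04, SE 0.06, adjusted p = 0.76).

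Rel (c-Rel, a subunit abundant in blood cells) followed genotype as well as treatment. With Cgas present its libraries were at 54.7, 49.6 and 48.7 CPM with vehicle, 65.1, 65.2 and 68.7 CPM with tau and 71.8, 73.1 and 75.0 CPM with HT-DNA. Cgas-/- libraries had it at 35.4, 38.2 and 37.5 CPM with vehicle, 41.9, 45.0 and 40.8 CPM with tau and 37.3, 38.8 and 40.4 CPM with HT-DNA. Every Cgas-/- library lay below every Cgas+/+ library, whatever the treatment. Rel was 1 of the 2 genes higher with HT-DNA than with tau (tau minus HT-DNA -0.14, SE 0.05, adjusted p = 0.035). Without Cgas, tau raised Rel by 0.20 (SE 0.06, adjusted p = 0.012), a call lost without Cgas-/- vehicle library 1 or Cgas-/- tau library 2 (adjusted p up to 0.094). The HT-DNA response of Rel was smaller in Cgas-/- microglia by 0.45 on the log2 scale (interaction -0.45, SE 0.08, adjusted p = 3.5e-05).

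Relb, the subunit that pairs with p52 in the non-canonical arm of the pathway, rose with tau in both genotypes and did not pass the test with HT-DNA in either. Cgas+/+ libraries had it at 38.8, 40.8 and 39.0 CPM with vehicle, 70.2, 59.4 and 62.8 CPM with tau and 38.0, 43.3 and 46.4 CPM with HT-DNA. In Cgas-/- libraries it was at 43.1, 43.1 and 44.5 CPM with vehicle, 62.9, 65.01 and 64.0 CPM with tau and 39.4, 47.2 and 45.0 CPM with HT-DNA. The 6 tau libraries, of both genotypes, lay above the other 12. Under tau the genotypes differed by -0.00 on the log2 scale (SE 0.07, adjusted p = 0.98), and the HT-DNA libraries overlapped the vehicle libraries in both genotypes. Without Cgas+/+ HT-DNA library 1 the HT-DNA estimate of 0.11 became 0.18 and passed the threshold (adjusted p = 0.042).

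Of the precursors, Nfkb1 (p105 and p50) rose with both agents. In Cgas+/+ libraries it was at 142, 134 and 137 CPM with vehicle, 236, 227 and 244 CPM with tau and 206, 206 and 213 CPM with HT-DNA. Without Cgas the libraries were at 117, 118 and 117 CPM with vehicle, 178, 182 and 185 CPM with tau and 121, 132 and 125 CPM with HT-DNA. The tau response was 0.78 (SE 0.04) and 0.64 (SE 0.04) on the log2 scale in the 2 genotypes, while the HT-DNA response of 0.60 in Cgas+/+ microglia was 0.11 in Cgas-/- microglia (adjusted p = 0.28). The second of these differences between genotypes passed the test (-0.49, SE 0.06, adjusted p = 1e-07) and the first did not (-0.14, SE 0.06, adjusted p = 0.16). Gm43430, which overlaps Nfkb1 on the same strand, had at most 15 counts.

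Nfkb2 (p100, the precursor of p52 and itself an IkB) had the largest difference between the agents among the 10 genes. With Cgas present its libraries were at 80.7, 83.2 and 86.9 CPM with vehicle, 163, 146 and 166 CPM with tau and 84.2, 89.3 and 95.6 CPM with HT-DNA. Cgas-/- libraries had it at 65.02, 64.5 and 69.6 CPM with vehicle, 107, 113 and 115 CPM with tau and 65.2, 68.1 and 73.3 CPM with HT-DNA. The tau libraries of each genotype stood apart and the HT-DNA libraries overlapped vehicle. Tau exceeded HT-DNA in Cgas+/+ microglia by 0.82 (SE 0.05, adjusted p = 2e-12), and the tau response of 0.92 in Cgas+/+ and 0.75 in Cgas-/- microglia did not differ between genotypes past the threshold (adjusted p = 0.22). Nfkb2 overlaps Psd on the opposite strand, and the strand setting of the counting was not given; Psd had 97 to 360 counts in the cultured libraries, against 1165 to 3198 for Nfkb2. Psd was itself highest with tau, at 331 to 360 counts in Cgas+/+ libraries against 201 to 282 with vehicle, and its part in the result was not tested.

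Of the IkB genes, Nfkbia (IkBa, the rapid feedback inhibitor) showed a rise with both agents that was smaller without Cgas. Cgas+/+ libraries had it at 49.4, 44.8 and 47.0 CPM with vehicle, 121, 96.4 and 119 CPM with tau and 107, 118 and 122 CPM with HT-DNA. In Cgas-/- libraries it was at 55.1, 52.4 and 62.4 CPM with vehicle, 91.4, 84.9 and 88.4 CPM with tau and 69.7, 68.2 and 64.6 CPM with HT-DNA. In Cgas-/- microglia the tau response was 0.64 (SE 0.07, adjusted p = 6.2e-08) and the HT-DNA response 0.25 (SE 0.07, adjusted p = 0.10). Both differed from the Cgas+/+ response, by -0.62 (SE 0.10, adjusted p = 0.00020) for tau and -1.05 (SE 0.10, adjusted p = 3.4e-09) for HT-DNA.

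Nfkbie (IkBe, a slower feedback inhibitor) had a tau response of 1.27 in Cgas+/+ and 0.95 (SE 0.08) in Cgas-/- microglia, the latter the largest of the 10. In Cgas+/+ libraries it was at 17.02, 18.6 and 15.98 CPM with vehicle, 42.7, 40.0 and 41.9 CPM with tau and 32.2, 37.1 and 36.2 CPM with HT-DNA. Without Cgas the libraries were at 14.2, 15.01 and 15.4 CPM with vehicle, 27.6, 26.9 and 31.8 CPM with tau and 18.2, 19.6 and 19.5 CPM with HT-DNA. It was 1 of the 2 genes that HT-DNA raised in Cgas-/- microglia (log2 fold change 0.36, SE 0.08, adjusted p = 0.022), a call lost without any 1 of 5 of the 6 libraries compared, all but Cgas-/- HT-DNA library 1, with adjusted p up to 0.13. Its HT-DNA response differed between genotypes (-0.66, SE 0.11, adjusted p = 3e-05), and its tau response did not pass the test of the difference (-0.32, SE 0.11, adjusted p = 0.085).

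Tnfaip3 (A20, which removes the ubiquitin chains that NF-kB signalling is built on) was the gene on which the 2 agents differed most in favour of HT-DNA. With Cgas present its libraries were at 83.1, 77.04 and 75.4 CPM with vehicle, 132, 121 and 140.4 CPM with tau and 184, 187 and 171 CPM with HT-DNA. Cgas-/- libraries had it at 94.3, 95.5 and 92.9 CPM with vehicle, 124, 131 and 135 CPM with tau and 95.4, 112 and 119 CPM with HT-DNA. The 3 Cgas+/+ HT-DNA libraries were the highest of the 18, and the tau libraries of both genotypes overlapped. Tau minus HT-DNA was -0.46 (SE 0.06, adjusted p = 5.6e-07) in Cgas+/+ microglia, and the HT-DNA response was smaller in Cgas-/- microglia (-0.99, SE 0.09, adjusted p = 5.9e-10).

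Nfkbiz (IkBz, a nuclear co-activator of secondary response genes) was lower in every Cgas-/- group than in the matching Cgas+/+ group. Cgas+/+ libraries had it at 30.8, 27.5 and 27.7 CPM with vehicle, 51.2, 46.3 and 48.3 CPM with tau and 53.0, 55.7 and 47.9 CPM with HT-DNA. In Cgas-/- libraries it was at 21.4, 19.7 and 23.5 CPM with vehicle, 28.9, 29.1 and 27.3 CPM with tau and 27.4, 26.04 and 29.8 CPM with HT-DNA. The tau response was 0.76 (SE 0.07) with Cgas and 0.39 (SE 0.08) without it, a difference of -0.36 (SE 0.10, adjusted p = 0.029). That call was lost without Cgas+/+ vehicle library 2 or 3, Cgas+/+ tau library 1 or 3, Cgas-/- vehicle library 1 or 3 or Cgas-/- tau library 3, with adjusted p up to 0.13 (Cgas-/- vehicle library 3). HT-DNA still raised it in Cgas-/- microglia (0.36, SE 0.08, adjusted p = 0.013; lost without Cgas-/- vehicle library 1 or 2 or Cgas-/- HT-DNA library 3, adjusted p up to 0.11), by less than in Cgas+/+ microglia (-0.50, SE 0.10, adjusted p = 0.00035).

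Bcl3 (an IkB-like protein that binds p50 and p52 in the nucleus) was counted 160 to 472 times in a cultured library. In Cgas+/+ libraries it was at 8.68, 9.43 and 8.64 CPM with vehicle, 18.8, 15.03 and 18.3 CPM with tau and 14.3, 15.99 and 17.4 CPM with HT-DNA. Without Cgas the libraries were at 13.95, 11.9 and 11.3 CPM with vehicle, 11.3, 15.7 and 15.5 CPM with tau and 15.2, 18.9 and 14.5 CPM with HT-DNA. It was the 1 gene that tau did not raise past the threshold in Cgas-/- microglia (0.20, SE 0.12, adjusted p = 0.33), from a vehicle level that was itself higher than in Cgas+/+ microglia. The tau response differed between genotypes by -0.76 (SE 0.18, adjusted p = 0.0083). Its HT-DNA difference was -0.44 (SE 0.18, adjusted p = 0.060), which passed the threshold with relative log expression (RLE) scaling, DESeq2, no filter or the compared groups alone. The antisense genes Gm16174 and Gm16175, which overlap Bcl3, had at most 23 and 2 counts in any cultured library.

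Counted over the 10 genes, tau raised 9 in Cgas-/- microglia and lowered none, against a background of 11.2% called higher and 5.48% called lower, and the median log2 fold change was 0.51 against 0.01 for all tested genes. HT-DNA raised 2, Nfkbie and Nfkbiz, and lowered none, against a background of 1.04% higher and 0.278% lower. With HT-DNA 7 of the 10 had an unadjusted p under 0.05 and all 10 estimates were above 0, and these shares were not counted over all tested genes. The median log2 fold change of the 10 with HT-DNA was 0.17, against 0.01 for all tested genes. The count of called genes ran from 0 to 3 when 1 library at a time was left out. It was 0 without Cgas-/- vehicle library 1 or 2 or Cgas-/- HT-DNA library 3 and 1 without Cgas-/- HT-DNA library 2. In the test of the difference in response, the tau response was smaller in Cgas-/- microglia for 3 genes (Nfkbia, Nfkbiz and Bcl3) and larger for none, against a background of 3.61% higher and 3.31% lower. Of the 10 tau differences 1 was above 0 and 8 had an unadjusted p under 0.05 in edgeR. Their median was -0.23, against 0.02 for all tested genes. The HT-DNA response was smaller for 6 (Nfkb1, Rel, Nfkbia, Nfkbie, Nfkbiz and Tnfaip3) and larger for none, against a background of 17.4% higher and 16.6% lower. Of the 10 HT-DNA differences 1 was above 0 and 8 had an unadjusted p under 0.05. Their median was -0.47, against 0.03 for all tested genes. The shares above 0 and under an unadjusted p of 0.05 were not counted over all tested genes for either agent. The comparisons within a genotype and the differences between genotypes share the vehicle libraries.

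**Figure D2:**
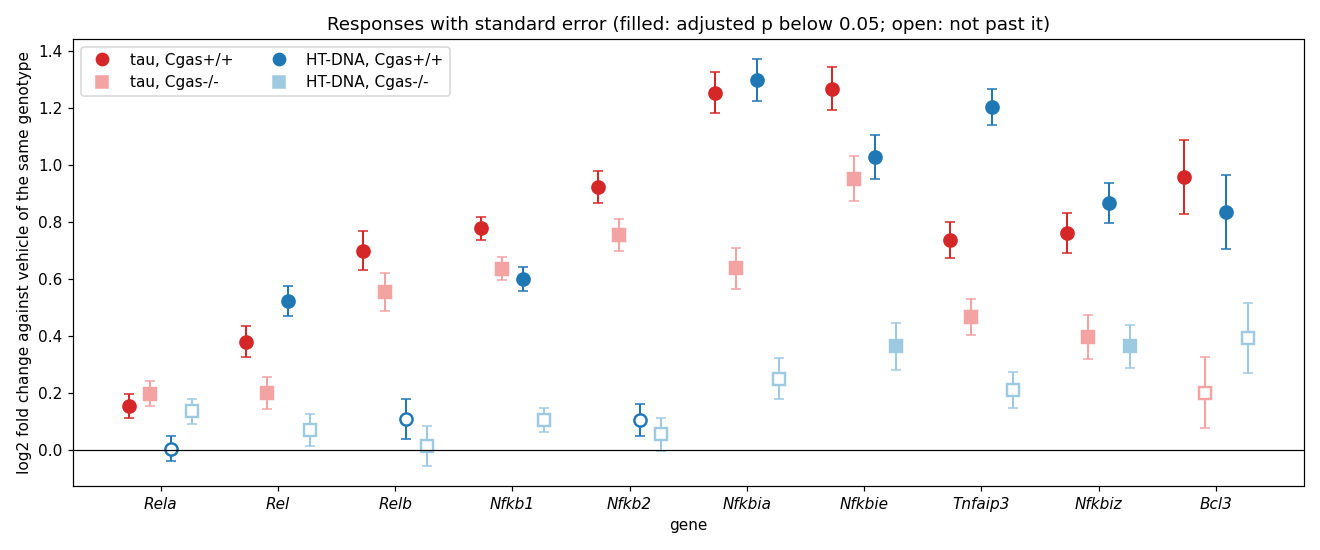
log2 fold change against vehicle of the same genotype (y axis) for each gene (x axis), with bars of 1 standard error; circles are Cgas+/+ and squares Cgas-/- microglia, red and pink tau, blue and light blue HT-DNA, and filled symbols passed the adjusted p threshold of 0.05. The 4 estimates lie furthest apart in Nfkbia and Tnfaip3, and Relb and Nfkb2 show tau responses in both genotypes beside HT-DNA responses of 0.11 or less.

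With vehicle alone the genotypes already differed. 3 genes were higher in Cgas-/- microglia (Nfkbia 0.27, Tnfaip3 0.26 and Bcl3 0.47 on the log2 scale) and 5 lower (Nfkb1 -0.23, Nfkb2 -0.33, Rel -0.46, Nfkbie -0.21 and Nfkbiz -0.41), against a background of 24.7% higher and 27.3% lower. The call of Nfkbie was lost without Cgas+/+ vehicle library 1 or 2 or Cgas-/- vehicle library 1 or 2 (adjusted p up to 0.21), and that of Nfkbia without Cgas-/- vehicle library 3 (adjusted p = 0.051). The 3 higher genes are inhibitors or modulators, and the 5 lower ones include inhibitors and subunits. With tau 7 were lower and none higher, against a background of 25.2% higher and 26.2% lower; Rela, Relb and Tnfaip3 did not pass the test. Of these 7, Bcl3 had overlapping groups and an adjusted p of 0.048, which rose to 0.32 without Cgas-/- tau library 1 and passed 0.05 without Cgas+/+ tau library 1 or 3 too. With HT-DNA 7 were lower and none higher, against a background of 33.1% higher and 30.1% lower; Rela, Relb and Bcl3 did not pass the test. Homeostatic microglial markers summed to 3212 to 3317 CPM in Cgas+/+ vehicle libraries and 2052 to 2171 CPM in Cgas-/- vehicle libraries, and the astrocyte list to 4.46 to 5.80 and 0.880 to 1.51 CPM. In bulk libraries fewer cells of a type and less RNA per cell cannot be told apart, nor can cultures and genotypes be told apart where the labels do not say which pups were pooled; the part of these markers in the result was not tested.

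The rest of the pathway was described with 4 lists. Of 28 kinases, adaptors and ubiquitin ligases upstream of NF-kB, tau raised 16 and lowered none in Cgas+/+ microglia, led by Ikbke (1.16, SE 0.06), an IkB kinase relative, Birc3 (0.94, SE 0.06), a ubiquitin ligase of receptor complexes, and Myd88 (0.82, SE 0.07), the adaptor of Toll-like receptors. HT-DNA raised 16 and lowered 2 (Map3k14, the kinase of the non-canonical arm, -0.44, and Card9, -0.47). In Cgas-/- microglia tau raised 12 and HT-DNA none. In the order given, the shares of all tested genes called higher were 15.8%, 22.8%, 11.2% and 1.04%. The shares called lower were 12.2%, 24.7%, 5.48% and 0.278%. The medians of this list were 0.20, 0.22, 0.12 and 0.02 in the same order, and those of all tested genes were -0.01, -0.03, 0.01 and 0.01.

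Of 16 further inhibitors, tau raised 7 and lowered 3 in Cgas+/+ microglia, against a background of 15.8% called higher and 12.2% called lower. Irak3, which blocks Toll-like receptor signalling, rose by 1.10 (SE 0.08) and Tnip3, an A20-binding protein, by 1.05 (SE 0.11). HT-DNA raised 8 and lowered 2, against a background of 22.8% higher and 24.7% lower. Irak3 was among the lowered (-0.30, SE 0.09, adjusted p = 0.0086). Tau and HT-DNA libraries differed in Irak3 by 1.40 (SE 0.09). Zc3h12a, the RNase that degrades cytokine transcripts, rose with both (0.78 and 1.07). In Cgas-/- microglia tau raised 7 and lowered 2, with Irak3 at 1.08 (SE 0.08), against a background of 11.2% higher and 5.48% lower. None of the 16 was called with HT-DNA in edgeR, where the background was 1.04% higher and 0.278% lower. The medians of this list were 0.21, 0.10, 0.09 and 0.10 in the same order.

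Of 27 tested target genes of NF-kB, mostly cytokines, chemokines and adhesion molecules, tau raised all 27 in Cgas+/+ microglia with a median of 1.69. The background was 15.8% of all tested genes called higher and 12.2% called lower. Tnf rose by 2.09 (SE 0.10) and Icam1 by 1.42 (SE 0.07). HT-DNA raised 23, lowered Sod2 and left 3 uncalled, against a background of 22.8% higher and 24.7% lower. The median was 1.29, or 1.07 with the genes at or under 3 counts set at their bounds. In Cgas-/- microglia tau raised 24 and lowered 1 (Cd83), against a background of 11.2% higher and 5.48% lower, with a median of 1.39. Il12b, a subunit of interleukin-12, had at most 3 counts in each Cgas-/- vehicle library and was at least 40.4-fold higher with tau, taking 3 counts per library as the floor. In Cgas+/+ libraries Il12b averaged 2.33 counts with vehicle and 215 with tau. With tau it was lower in Cgas-/- than in Cgas+/+ microglia (-0.84, SE 0.21, adjusted p = 0.0013). HT-DNA in Cgas-/- microglia raised 5, among them Tnf (0.54, SE 0.10), and lowered none. The background was 1.04% higher and 0.278% lower. The tau response was smaller without Cgas for 16 of the 27 and larger for 1, Ccl5, against a background of 3.31% lower and 3.61% higher. The HT-DNA response was smaller for 17 and larger for 1, against a background of 16.6% lower and 17.4% higher. Each response is measured from the vehicle level of its own genotype, where 9 genes were higher and 8 lower in Cgas-/- microglia. The background of that comparison was 24.7% higher and 27.3% lower, and the median of the 27 genes was 0.02. With tau, 4 were higher and 17 lower, against a background of 25.2% higher and 26.2% lower. Ccl5 was still lower with tau (-2.04 on the log2 scale). Il1a (0.72), Ier3 (1.46) and Ehd1 (0.13) were higher with tau, although their tau responses were smaller. The part of the vehicle levels in these responses was not tested.

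The 15 interferon-stimulated genes listed as a comparison rose with tau (15 of 15, median 1.73) and HT-DNA (15 of 15, median 2.70) in Cgas+/+ microglia and with tau in Cgas-/- microglia (15 of 15, median 5.45), and none was called with HT-DNA in Cgas-/- microglia (all 15 estimates above 0, 0.12 to 1.35). The shares of all tested genes called higher were 15.8%, 22.8%, 11.2% and 1.04% in the same order. With vehicle, all 15 were lower in Cgas-/- microglia, with a median of -6.71, or -5.82 with the gene at or under 3 counts set at its bound. With tau, all 15 were again lower in Cgas-/- microglia, with a median of -2.66. Of all tested genes 27.3% were called lower with vehicle and 26.2% with tau. Measured from the lower vehicle level of that genotype, the tau response of all 15 was larger on the log2 scale in Cgas-/- microglia, opposite in sign to the differences of Nfkbia, Nfkbiz and Bcl3. The part of this vehicle difference in the responses of the 10 genes was not tested.

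**Figure D3:**
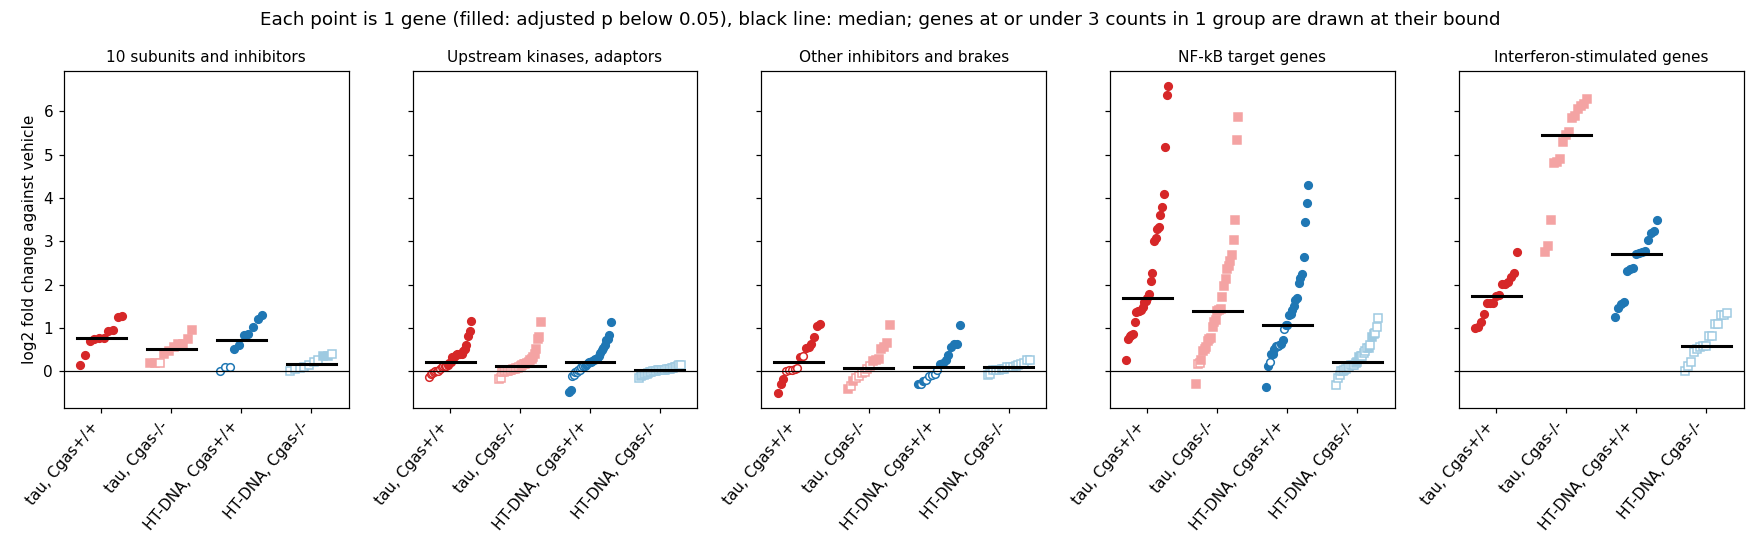
log2 fold change against vehicle (y axis) of each gene of the 10 described and of the 4 lists, in the 4 comparisons with vehicle; filled symbols passed the adjusted p threshold of 0.05, black lines are medians, and genes at or under 3 counts in 1 group are drawn at their bound. The medians of the interferon-stimulated genes run from 0.59 with HT-DNA in Cgas-/- microglia to 5.45 with tau in Cgas-/- microglia, and those of the 10 genes from 0.17 to 0.77.

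The patterns of the 10 genes over the 18 cultured libraries were compared by the root mean square difference of their centred log2 levels, a description in which the libraries of a group share their treatment. The closest pair was Rel and Nfkbiz (0.17), then Nfkb1 and Nfkbie (0.19) and Nfkbia and Nfkbie (0.20), and the farthest was Rela and Nfkbie (0.49). Among 9219 other genes, the nearest to Relb was Tnip1 (0.09), an A20-binding protein, to Nfkbie Tlr2 (0.09), the receptor for bacterial lipoproteins, to Nfkb1 March1 (0.08), a ubiquitin ligase, and Cybb (0.08), the NADPH oxidase subunit. The nearest to Rel was Ep400 (0.06), to Nfkbia Bcl2a1d (0.15), to Nfkb2 Vasp (0.15), to Tnfaip3 Ttc39b (0.11) and to Nfkbiz Larp1 (0.13). The nearest to Rela was Card19 (0.05), where Rela itself varied by an SD of 0.09, and the nearest to Bcl3 was Hivep3 (0.21).

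In hippocampus, 2 of the 10 genes were higher in P301S than in Ntg mice and none was lower, against a background, over 16453 tested genes, of 1.39% called higher and 0.122% called lower. They were Bcl3 and Rela. Both calls were lost in 9 of the 13 fits that left out 1 mouse, and that of Rela also with sex in the fit (adjusted p = 0.054). The median log2 fold change of the 10 genes was 0.35, against 0.00 for all tested genes, and 9 of the 10 estimates were above 0. These are whole tissue libraries, in which each of the 10 genes can come from several cell types.

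Bcl3 was at 0.221, 0.429 and 0.631 CPM (lowest, median and highest) in the 7 Ntg hippocampi, which is 6 to 20 counts, and at 0.316, 3.65 and 7.01 CPM in the 6 P301S hippocampi. Mice 29, 36, 65 and 77 were at 7.01, 4.36, 5.34 and 2.95 CPM, mouse 63 was at 0.923 CPM and mouse 43 was inside the Ntg range. The log2 fold change was 2.99 (SE 0.55, adjusted p = 0.030), and the exact two-sided permutation test of the mean log2 level gave p = 0.0047, where 1716 splits allow no p below 0.00058. Bcl3 had overlapping antisense genes with at most 4 counts.

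Rela was at 18.3, 19.7 and 23.6 CPM in Ntg and 23.0, 26.4 and 30.8 CPM in P301S hippocampi. 5 of the 6 P301S mice lay above every Ntg mouse, and mouse 43 did not. The log2 fold change was 0.37 (SE 0.08, adjusted p = 0.038; exact permutation p = 0.0017). It is a small change measured on 509 to 932 counts per library.

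The precursor genes came next and did not pass the test over all genes. Nfkb2 was at 1.99, 2.24 and 3.44 CPM in Ntg and 2.91, 4.46 and 8.03 CPM in P301S hippocampi (0.97, SE 0.24, adjusted p = 0.055; exact permutation p = 0.0029). Nfkb1 was at 13.9, 16.1 and 19.8 CPM in Ntg and 17.3, 21.4 and 26.2 CPM in P301S hippocampi (0.40, SE 0.10, adjusted p = 0.064; exact permutation p = 0.0035). Mice 29, 36 and 65 were highest in Nfkb2, and its groups overlapped in mice 43 and 63. Psd, the opposite-strand neighbour that overlaps Nfkb2, had 9694 to 21625 counts per hippocampus against 60 to 243 for Nfkb2, and its estimate was in the other direction (-0.37, adjusted p = 0.053); how much of the Nfkb2 count comes from that strand was not tested.

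Nfkbia was at 15.8, 17.4 and 19.6 CPM in Ntg and 17.7, 20.8 and 31.5 CPM in P301S hippocampi (0.32, SE 0.12, adjusted p = 0.20; exact permutation p = 0.013), with mouse 29 far above the others. Nfkbie was at 2.33, 3.50 and 4.31 CPM in Ntg and 3.16, 3.65 and 7.88 CPM in P301S hippocampi (0.48, SE 0.23, adjusted p = 0.33), and mice 29 and 63 alone lay above the Ntg range. Rel, Relb, Tnfaip3 and Nfkbiz had estimates of 0.26, 0.05, 0.03 and -0.05 with adjusted p values of 0.439 to 0.955. The cultures and the tissue differ in cells, age and time, and the difference between them was not tested.

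**Figure D4:**
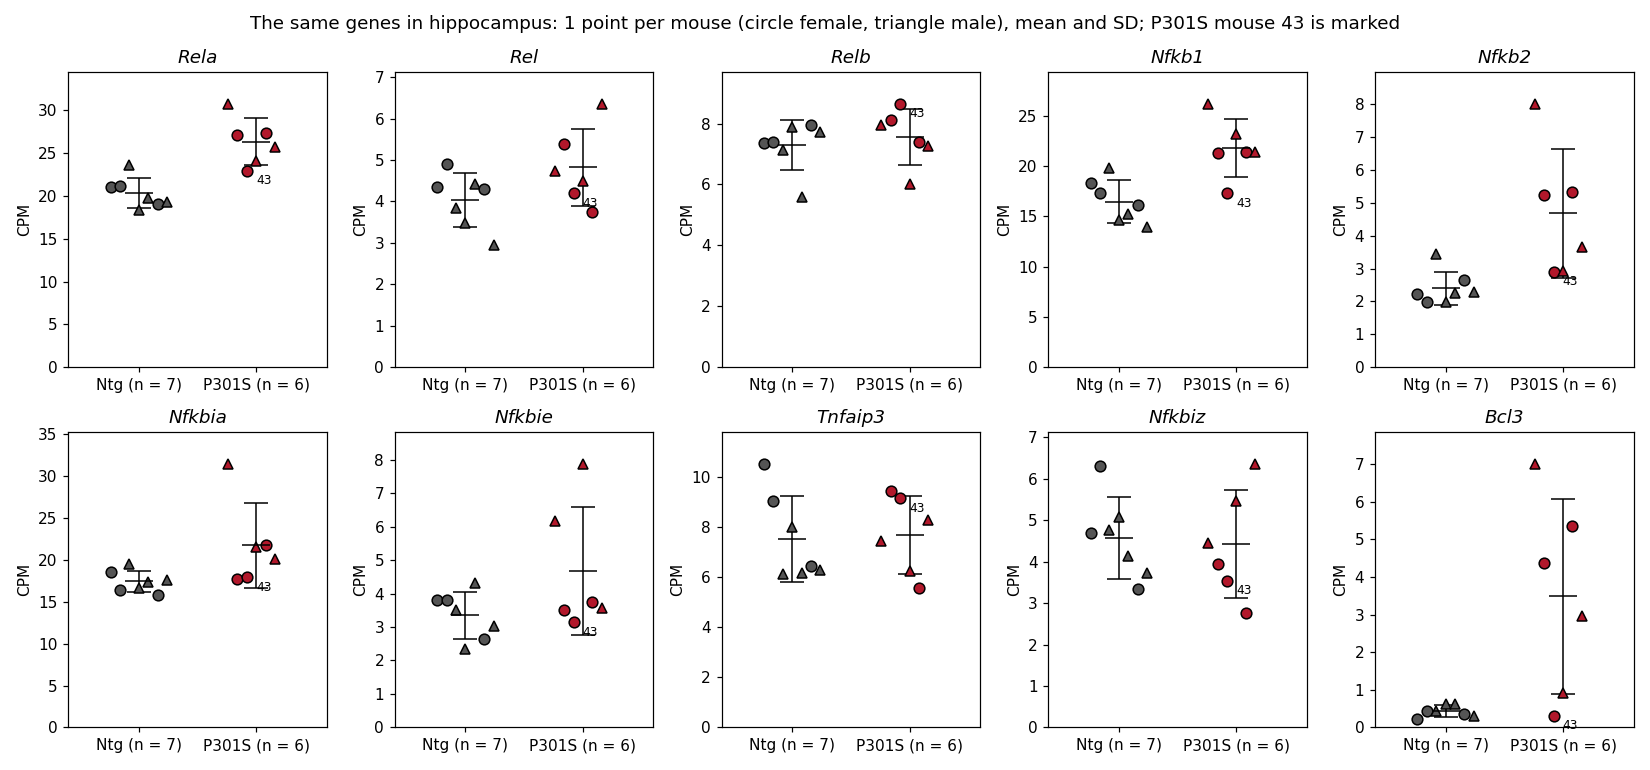
CPM (y axis, from 0) of the 10 genes in hippocampi of 7 Ntg and 6 P301S mice, with 1 point per mouse (circles female, triangles male) and bars for the mean and SD. 5 of the 6 P301S mice lie above all Ntg mice in Bcl3, Rela and Nfkb1, and P301S mouse 43, marked with its number, is the exception in each.

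The P301S mice differed among themselves. Mice 29 and 77 exceeded every Ntg mouse in 7 of the 10 genes, mouse 36 in 6, mice 63 and 65 in 5 and mouse 43 in 1, Relb. In mouse 29, 1 of the 7 was Relb, at 7.964 CPM against 7.963 CPM in the highest Ntg mouse. In mouse 77, 1 of the 7 was Nfkbiz, at 6.36 CPM against 6.31 CPM in the highest Ntg mouse. In how many of all tested genes each mouse exceeded every Ntg mouse was not counted. Mouse 43 carried Mapt at 970 CPM, within the P301S range. Pan-macrophage markers summed to 26.9 CPM in mouse 43 and 34.1 CPM in mouse 63, against 30.1 to 33.7 CPM in Ntg mice and 61.2 to 136 CPM in the other 4 P301S mice. Homeostatic microglial markers summed to 336 to 727 CPM in P301S and 337 to 420 CPM in Ntg mice, with 0 of 7 called, and Cd68 was the 1 of 4 pan-macrophage markers called (1.90, adjusted p = 0.033). The astrocyte list summed to 1341 CPM in mouse 43, 2060 CPM in mouse 63 and 2974 to 4443 CPM in the other 4, against 1327 to 1519 CPM in Ntg mice, with Gfap the 1 of 5 called (2.22, adjusted p = 0.021). The neutrophil list summed to at most 1.16 CPM in both groups. Of 4 T cell markers only Trac was tested, at 0.939 CPM on average in P301S and 0.834 CPM in Ntg mice (0.17, adjusted p = 0.85). Cd3e, Cd3d and Cd8a did not pass the filter on low counts and averaged 0.152 to 0.274 CPM in P301S and 0.0181 to 0.0291 CPM in Ntg mice. Mouse 29, the highest of the 13 in Bcl3, Rela, Nfkb1, Nfkb2 and Nfkbia, also had the lowest mitochondrial share of counts (2.85%, against 3.78% to 5.58% in the others), the highest scaling factor (1.06) and the lowest sum of neuronal markers (5295 CPM, against 5829 to 8430 CPM), and the part of these in its levels was not tested.

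**Figure D5:**
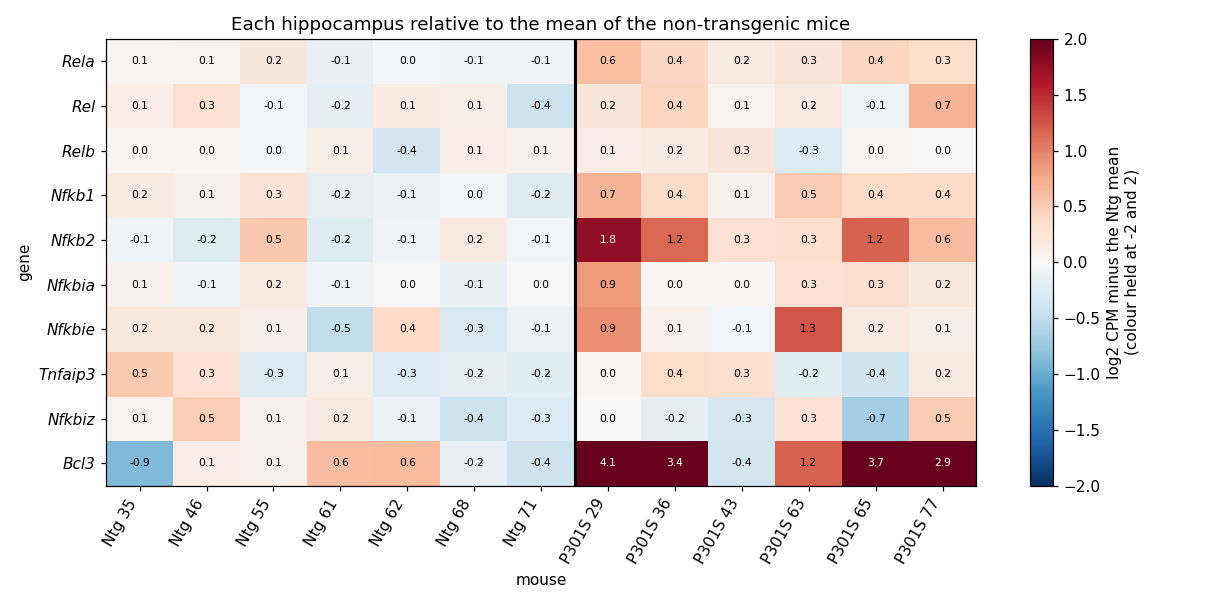
log2 CPM of each gene (rows) in each mouse (columns) minus the mean of the 7 Ntg mice, with values printed and colour held between -2 and 2. Bcl3 and Nfkb2 are raised in P301S mice 29, 36, 65 and 77, and Bcl3 also, by less, in P301S mouse 63 (1.2). The column of P301S mouse 43 resembles the Ntg columns.

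The 2 hippocampal calls moved with these markers and with single mice. When the homeostatic marker mean entered the fit the estimate of Bcl3 was 1.41 (adjusted p = 0.20) and that of Rela 0.29 (adjusted p = 0.28). With the pan-macrophage mean they were 0.82 and 0.23, and with the astrocyte mean -0.15 and 0.15, none past the threshold; the pan-macrophage and astrocyte covariates were chosen after seeing the data. Over all tested genes the same 3 fits called 21, 11 and 5 genes higher, against 229 without a covariate, so most calls outside these 10 genes were lost too. The summed levels of these marker lists were themselves higher in P301S mice 29, 36, 65 and 77 than in any Ntg mouse. Markers and genotype therefore cannot be told apart in these fits. With sex in the fit Bcl3 was 3.03 (adjusted p = 0.045) and Rela 0.38, and 129 genes were called higher. Leaving out 1 mouse at a time gave 0 calls among the 10 genes in 9 of 13 fits (P301S mouse 29, 36 or 65, or any Ntg mouse but 55), 3 calls in 2 fits (P301S mouse 63 or 77) and 4 in 2, and the estimate of Bcl3 stayed between 2.67 and 3.23. The 9 fits with 0 calls among the 10 genes called 14 to 24 of all tested genes higher, and the other 4 called 200 to 751. Without mouse 43, the 4 called genes were Bcl3 (3.23, adjusted p = 0.0011), Rela, Nfkb1 and Nfkb2, and without Ntg mouse 55 they were the same 4.

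Within sex, the mean log2 difference of Bcl3 was 2.56 in females (3 P301S, 3 Ntg) and 2.49 in males (3 and 4), and that of Rela 0.34 and 0.41. For Nfkbie it was 0.04 in females and 0.79 in males, and for Nfkbiz -0.45 and 0.29. The test of the difference between sexes called none of the 10 genes, nor any of the 16453 tested genes in edgeR's quasi-likelihood test, although 3897 had an unadjusted p under 0.05. Among the 10 genes Nfkbiz had the smallest unadjusted value, with an adjusted p of 0.18.

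In the pathway lists, P301S hippocampi were higher in 1 of 28 upstream genes (Birc3, 0.80, SE 0.17, adjusted p = 0.033), in none of 15 further inhibitors and in 2 of 17 tested target genes, the adhesion molecule Icam1 (1.76, SE 0.36, adjusted p = 0.032) and Tnfaip2 (1.598, SE 0.28, adjusted p = 0.026), and lower in none. Of all tested genes 1.39% were called higher and 0.122% lower. The median of the target genes was 0.30. The interferon-stimulated genes were higher in 9 of 13, with a median of 2.19. These calls come from the fit that called 229 of all tested genes higher. Leaving out 1 mouse took that number to 14 to 24 in 9 of 13 fits. No gene of these lists was chosen independently of earlier results of these data.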

How the data were processed

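RNA sequencing was analysed from 31 mouse libraries, 18 of cultured microglia and 13 of hippocampus. The authors deposited 1 table of raw counts per gene for each experiment. Per the labels, libraries were made with a 3′ mRNA kit and processed on GRCm38, and the submitters' processing notes list edgeR and limma; the aligner, counter, strand setting and annotation were not given in the sources used here.

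The deposited counts were fitted in R 4.3.3 with edgeR 4.0.16 (filterByExpr, TMM scaling, glmQLFit and glmQLFTest), with all 6 groups in 1 fit for the microglia and both groups in 1 fit for the hippocampi. The standard error was the log2 fold change divided by the square root of F. p values were adjusted by Benjamini-Hochberg over 13675 and 16453 tested genes. CPM were TMM-scaled, and 0.5 CPM was added before logarithms in the comparison of patterns. Samples were grouped by their labels alone. The study describes the 3 microglial samples of a group as biologically independent, no label ties a library to a pup or culture, and p values measure the spread between these libraries. No pair of replicates agreed within sampling noise. The floor of 3 counts covers counting error only, while the standard errors, taken from the quasi-likelihood fit, include the spread between libraries.

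The 10 genes, the 4 pathway lists and the marker lists were chosen with earlier results of these data known. The 10 genes were given in every comparison; of each list, up to 3 called genes with the largest change and a mean count of at least 20 in the higher group were eligible for naming, together with genes named for an opposite direction or as the closest patterns (mean of at least 5 CPM), chosen after their values were seen, as were Tnf and Icam1. Counted reads cannot be split between Nfkb2 and Psd without strand. Alternatives were RLE scaling, no filter, DESeq2 1.42.0, a minimum log2 fold change (1 in microglia, 0.5 in hippocampus), fits of the compared groups only, a replicate block, covariates and leaving out each library. The fits were tested on simulated data.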

Additional observations from a re-analysis of the deposited data

Results flagged for a closer look

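2 of 20 groups of hippocampi, each gene being tested once in each genotype, held 1 mouse far from the others by Dixon's test, which flags about 1 in 20 by chance. Nfkbia was at 31.5 CPM in P301S mouse 29, where the next mouse was at 21.8 CPM. That library also had the lowest mitochondrial share of the 13 (2.85%) and the lowest sum of neuronal markers (5295 CPM). Relb was at 5.58 CPM in Ntg mouse 62, where the next lowest mouse was at 7.13 CPM.

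The response to treatment differed between Cgas-/- and Cgas+/+ microglia by the interaction test in edgeR. For tau the difference was -0.62 for Nfkbia, -0.36 for Nfkbiz and -0.76 for Bcl3 on the log2 scale. For HT-DNA it was -0.49 for Nfkb1, -0.45 for Rel, -1.05 for Nfkbia, -0.66 for Nfkbie, -0.50 for Nfkbiz and -0.99 for Tnfaip3.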

How the results depend on the processing

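Of 1530 values of the 10 genes under other settings, 1343 kept their direction and their side of the threshold, 121 fell short of it, 31 newly passed it and 35 changed sign. The hippocampal calls, those of HT-DNA in Cgas-/- microglia and several near the threshold were the least stable, and the cause was not tested. Depth limits Bcl3 in hippocampus most, with 6 to 20 counts in Ntg mice.

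Requiring a minimum log2 fold change of 1 left 2 called genes with tau in Cgas+/+ microglia, 3 with HT-DNA in Cgas+/+ microglia, 1 in the HT-DNA by genotype difference and 0 in each other microglial comparison, and a minimum of 0.5 left 1 in hippocampus. No filter on low counts gave 5 with HT-DNA in Cgas-/- microglia, where all genes called went from 142 higher and 38 lower to 232 and 80 (38 to 61 lower with DESeq2). In hippocampus DESeq2 called 4 (697 higher and 214 lower over all genes, against 229 and 20), sex as a covariate left 1 (129 and 9 over all genes), and the homeostatic, pan-macrophage and astrocyte means left 0, 0 and 0 (21, 11 and 5 higher and 0 lower over all genes). Leaving out 1 library gave 0 to 3 with HT-DNA in Cgas-/- microglia and 0 to 4 in hippocampus.

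Values that changed sign were near 0, except Bcl3 in hippocampus with the astrocyte mean (-0.15). Nfkbiz in hippocampus was 0.10 with the pan-macrophage mean. Between genotypes with HT-DNA, Rela was -0.00376, -0.00381 and -0.0043 and Bcl3 -0.0116, -0.0131 and -0.0121 with RLE scaling, DESeq2 and the compared groups alone. With no filter, Rela with HT-DNA in Cgas+/+ microglia was -0.00239, and between genotypes with tau Relb was 0.0175 and Tnfaip3 0.00914. Leaving out 1 library gave -0.029 to 0.021 for Rela with HT-DNA in Cgas+/+ microglia, -0.13 to 0.056 for Nfkbia in tau against HT-DNA, and -0.043 to 0.067 for Relb with HT-DNA in Cgas-/- microglia. Between genotypes it gave -0.030 to 0.11 for Relb and -0.10 to 0.11 for Bcl3 with HT-DNA, and -0.053 to 0.067 for Relb and -0.063 to 0.045 for Tnfaip3 with tau. In hippocampus it gave -0.0078 to 0.11 for Relb, -0.18 to 0.055 for Nfkbiz and -0.034 to 0.13 for Tnfaip3.

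Replicate numbers were not treated as pairing, since correlations of same-numbered libraries ran from -0.11 to 0.12 and 6 of 18 libraries correlated best with their own number. The replicate block changed 1 call, Bcl3 between genotypes with tau (-0.29, adjusted p = 0.051 in edgeR), and moved no count by over 1.5 times.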
